A study of Rattus norvegicus with 4 samples.

Results

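Genes that answer to glucocorticoids and to fasting were examined in the livers of 4 untreated rats. They comprise 9 genes: the metallothioneins Mt2A and Mt1, the kinase Sgk1, the tyrosine aminotransferase Tat, the mitochondrial carrier Slc25a25, the regulators Fkbp5, Tsc22d3 and Per1, and the glucocorticoid receptor gene Nr3c1. The genes were chosen by their known role and with their signals and between-rat spread on these same 4 arrays already seen, so their levels and spread are given as a description and carry no test. Every probe set annotated to 1 of these symbols alone was used, which gave 10 probe sets out of 12789 with 1 symbol, and 9 of 10412 genes. Nr3c1 had 2 probe sets and each of the other 8 genes had 1.

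The series has 1 group of 4 male Sprague-Dawley rats aged 10 to 12 weeks, given no treatment, with free access to feed and water and lights on from 7 to 19 h. Each liver was hybridised to its own Affymetrix expression array, and the animals are called rats 1 to 4 after their replicate numbers. No rat was fasted or given a hormone, and the labels give neither the hour of sampling nor a hormone level, so a response to either was not measured. A difference between rats cannot be told apart from a difference between arrays, and in whole liver fewer cells of a type cannot be told apart from less RNA per cell.

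Glucocorticoids enter cells and bind the receptor encoded by Nr3c1, which is held ready by the chaperone Hsp90 and its partners. The bound receptor moves to the nucleus and switches genes on or off at short DNA elements. In liver these genes include enzymes of amino acid breakdown and glucose production, whose transcripts also rise in fasting through glucagon and cyclic AMP. Corticosterone in rats follows the light cycle and rises with stress and handling. Metallothioneins are small cysteine-rich proteins that bind zinc and copper, and their genes are induced by metals, through the factor Mtf1, and by glucocorticoids.

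In the RefSeq gene table of GRCr8, a rat genome assembly, Mt1, Mt2A, Mt3 and Mt4 follow one another on chromosome 19 with no other gene between them. The 250 bases before the start of Mt2A, at chr19:10838709-10838958 on the minus strand, and of Mt1, at chr19:10832976-10833225 on the minus strand, are shown because these genes had the same order of rats. Capitals mark each match to the core of the metal response element, TGCACNC or TGCGCNC, on either strand. The 250 bases before the start of Slc25a25, at chr3:36116582-36116831 on the minus strand, are shown with the cyclic AMP response element TGACGTCA in capitals. All sequences read 5′ to 3′ and come from RefSeq on GRCr8.
Mt2A: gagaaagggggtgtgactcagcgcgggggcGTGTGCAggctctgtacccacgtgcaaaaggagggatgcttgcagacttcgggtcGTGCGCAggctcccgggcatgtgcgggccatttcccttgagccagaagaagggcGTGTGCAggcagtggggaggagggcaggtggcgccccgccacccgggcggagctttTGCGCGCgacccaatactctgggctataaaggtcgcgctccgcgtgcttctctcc
Mt1: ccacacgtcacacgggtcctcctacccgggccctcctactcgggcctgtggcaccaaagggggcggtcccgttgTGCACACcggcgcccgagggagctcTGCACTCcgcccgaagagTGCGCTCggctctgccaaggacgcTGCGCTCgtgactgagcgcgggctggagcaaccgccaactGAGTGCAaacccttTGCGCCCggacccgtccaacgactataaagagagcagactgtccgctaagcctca
Slc25a25: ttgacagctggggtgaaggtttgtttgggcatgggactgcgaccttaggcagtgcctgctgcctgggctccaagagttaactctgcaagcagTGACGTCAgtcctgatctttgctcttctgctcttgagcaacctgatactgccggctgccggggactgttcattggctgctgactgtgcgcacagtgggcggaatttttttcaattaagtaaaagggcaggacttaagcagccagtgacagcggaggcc

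Mt2A held 4 metal response cores in its window and Mt1 held 6. Of 33469 promoter windows of the table, 20.6% held at least 1 such core, 0.266% held at least 4 and 0.0269% held at least 6. In both genes 1 core lay from 55 to 49 bases before the start. The TATA box TATAAA lay between it and the start, beginning 31 bases before the start in Mt2A and 32 in Mt1. Mt2A was the only 1 of the 9 genes with the E box CACGTG, which clock proteins bind and which 5.59% of all windows held. Slc25a25 was the only 1 with the full cyclic AMP element, which 1.59% of all windows held, and its match began 158 bases before the start. Slc25a25 also held 2 metal response cores that overlap each other, and Nr3c1 held 1.

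The glucocorticoid hexamer AGAACA, searched on both strands, was found in 0 of the 14 windows of the 9 genes, against 17.5% of all windows. Its palindrome, made of the hexamer and its reverse complement 3 bases apart, was found in 4 of all 33469 windows and in none of the 9 genes. Shorter cyclic AMP matches, TGACG, were found in Mt1, Slc25a25 and Tsc22d3 and in 18.2% of all windows. In Slc25a25 both of these lie inside the full element. A match is a string of letters and not a bound site, and no match says only that these letters are not in this window.

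**Figure D1:**
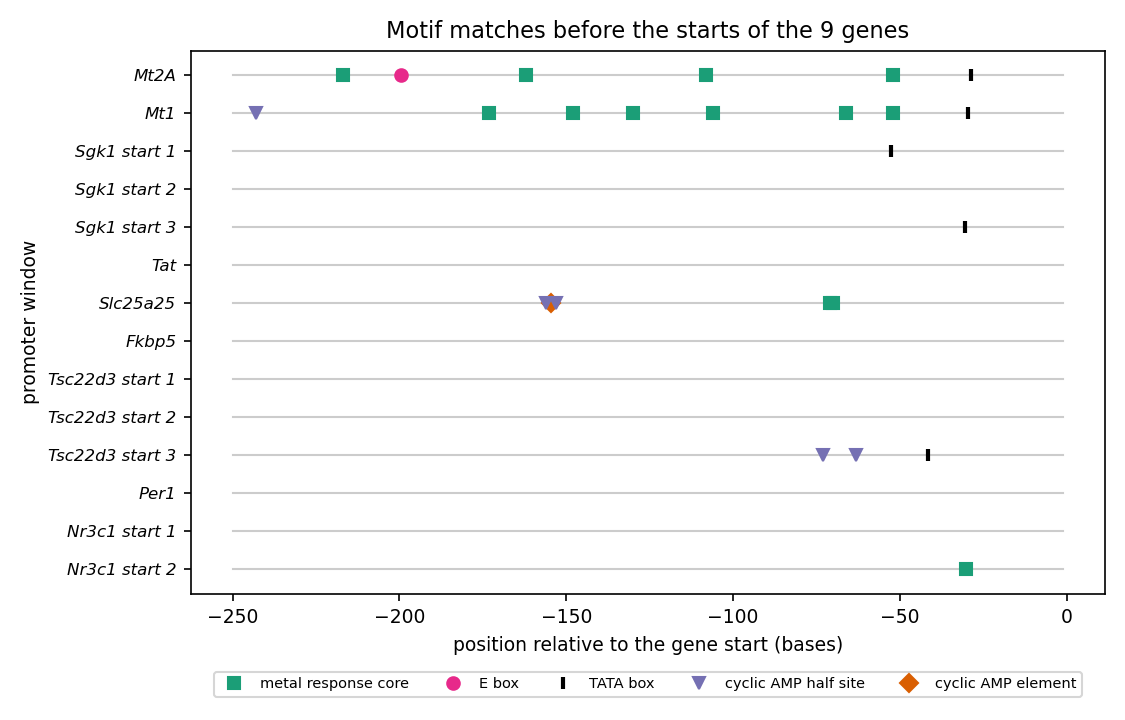
Positions of motif matches in the 250 bases before each annotated start of the 9 genes, on both strands, with the horizontal axis in bases from the start. Mt2A shows 4 metal response cores and Mt1 shows 6, while the windows of Tat, Fkbp5 and Per1 hold no match to any motif drawn.

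Signals are log2 values per probe set, and a signal depends on its probes, so levels are not compared between genes as amounts of transcript. Mt2A, a major liver metallothionein (probe set 1388271_at), had log2 signals of 10.82, 10.00, 8.94 and 12.33 in rats 1 to 4. Rat 4 was the highest and rat 3 the lowest, 3.40 log2 units apart, which is 10.5-fold on the deposited scale. The mean was 10.52 ± 1.43 (SD, n = 4), at the 95.7th percentile of all 15923 probe sets. This SD was rank 1 among the 12789 named probe sets, whose median SD was 0.0214, or 0.0483 without flat probe sets. Without rat 4 the SD of Mt2A was 0.94, over the 3 remaining rats.

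Mt1, the neighbouring metallothionein gene (1388267_a_at), had log2 signals of 8.60, 8.19, 7.84 and 8.87 in rats 1 to 4, with a mean of 8.38 ± 0.46 (SD, n = 4). Its range was 1.04 log2 units, smaller than that of Mt2A, and its SD was rank 61 of the named probe sets. The rats stood in the same order as for Mt2A, with rat 4 highest, then rat 1, rat 2 and rat 3. Of the 7280 named probe sets that were not flat, 2.94% had this order. All 4 Mt1 signals lay below the background level of 9.25, defined further down, which limits a reading of their order.

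A further probe set, 1371237_a_at, is annotated to 3 symbols, Mt1f, Ttr and Mt1, and so was not among the 10. Its log2 signals were 12.57, 11.81, 10.20 and 13.69 in rats 1 to 4, with a mean of 12.07 ± 1.46 (SD, n = 4). The order of rats was again that of Mt2A, and the range of 3.49 log2 units was close to the 3.40 of Mt2A. Ttr, the plasma carrier transthyretin, had 14.31, 14.34, 14.31 and 14.33 on its own probe set, an SD of 0.016. Probe sets of the metallothionein family can share sequence, so these 3 series may not be independent readings of separate transcripts.

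**Figure D2:**
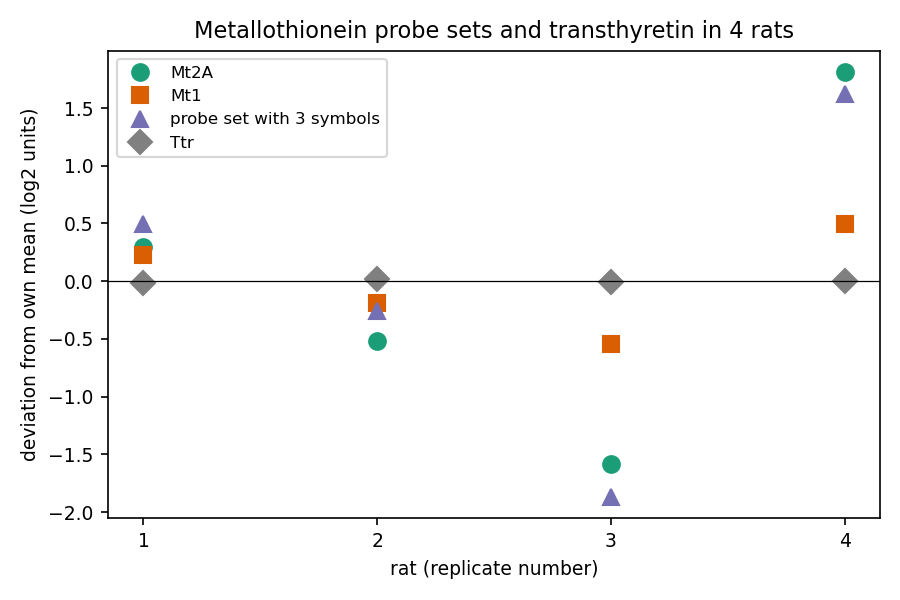
Deviation of each rat's log2 signal from the mean of its own probe set, for Mt2A, Mt1, the probe set with 3 symbols and Ttr, with the rat on the horizontal axis. The 3 metallothionein probe sets are highest in rat 4 and lowest in rat 3, while Ttr lies near 0 in all 4 rats.

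Other genes of zinc handling were examined as a list. Of 13 genes of that list other than Mt1 and Mt2A that had a probe set, 2 were above background, a log2 signal of 9.25 defined further down. That is 15.4%, near the 16.1% of all genes. Only Slc39a14 of the 2 was not flat. Slc39a14, a zinc importer of liver, had 10.24, 10.38, 10.38 and 10.36 in rats 1 to 4, and Slc39a1, another zinc importer, was flat at 10.25. Flat means equal to within 0.001 on all 4 arrays, which held for 43.1% of the named probe sets. Mtf1, the metal-sensing factor, was flat too, at 8.60, and Mt3, below background, ran from 8.74 to 8.81.

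Slc25a25, a calcium-regulated carrier of ATP-Mg and phosphate in the mitochondrial inner membrane (1371754_at), had log2 signals of 7.98, 8.81, 9.90 and 9.94 in rats 1 to 4. Rats 3 and 4 stood together above rats 2 and 1, with a gap of 1.09 log2 units between rats 3 and 2. The mean was 9.16 ± 0.94 (SD, n = 4), the range was 1.96 log2 units or 3.88-fold, and the SD was rank 3 of the named probe sets. This mean and the signals of rats 1 and 2 lay below the background level of 9.25, which limits a reading of the fold and the order.

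Sgk1, the serum- and glucocorticoid-regulated kinase, which acts on ion channels and transporters (1367802_at), had 8.81, 10.23, 9.76 and 8.67 in rats 1 to 4. Rats 2 and 3 were high and rats 1 and 4 low, with a gap of 0.95 log2 units between them. The mean was 9.37 ± 0.75 (SD, n = 4), with a range of 2.97-fold. The rat with the most Mt2A signal, rat 4, thus had the least Sgk1 signal. The Sgk1 signals of rats 1 and 4 both lay below the background level of 9.25, which limits a reading of their order.

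Tat, which catalyses the first step of tyrosine breakdown and is a classic glucocorticoid-induced gene of hepatocytes (1369790_at), had 9.52, 10.53, 11.10 and 10.30 in rats 1 to 4. Rat 3 was highest and rat 1 lowest. The mean was 10.36 ± 0.66 (SD, n = 4), and the range of 2.99-fold was near that of Sgk1. The spread rested partly on rat 1, without which the SD was 0.41.

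Tsc22d3, which encodes the glucocorticoid-induced leucine zipper protein (1367771_at), had 8.42, 8.49, 8.89 and 9.03 in rats 1 to 4, with a mean of 8.71 ± 0.30 (SD, n = 4). The order of rats was that of Slc25a25, from rat 4 down to rat 1, over a range of 1.53-fold. Of the 7280 named probe sets that were not flat, 3.72% had this order. All 4 Tsc22d3 signals lay below the background level of 9.25, which limits a reading of their order and fold.

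The probe sets of Nr3c1, Fkbp5 and Per1 had narrow ranges, and each lay below the background level of 9.25 on all 4 arrays. Low signals limit a reading of how steady these transcripts were. Nr3c1 had 8.82, 8.77, 8.92 and 8.85 on its brighter probe set, 1368221_at, and 7.45, 7.44, 7.39 and 7.34 on the other, 1368222_at. The SDs were 0.061 and 0.049, where the median SD of named probe sets that were not flat was 0.0483. The 2 probe sets of Nr3c1 disagreed on the order, with rat 3 highest on the first and rat 1 on the second. Fkbp5, a partner of Hsp90 that lowers the hormone binding of the receptor and is itself glucocorticoid-induced (1388901_at), had 7.87, 7.98, 7.89 and 7.94 in rats 1 to 4, an SD of 0.050. Its mean lay at the 38.5th percentile of all probe sets. Per1, a clock gene that glucocorticoids and cyclic AMP also induce (1374855_at), was flat at 8.74, so its value gives no reading of differences between the animals.

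**Figure D3:**
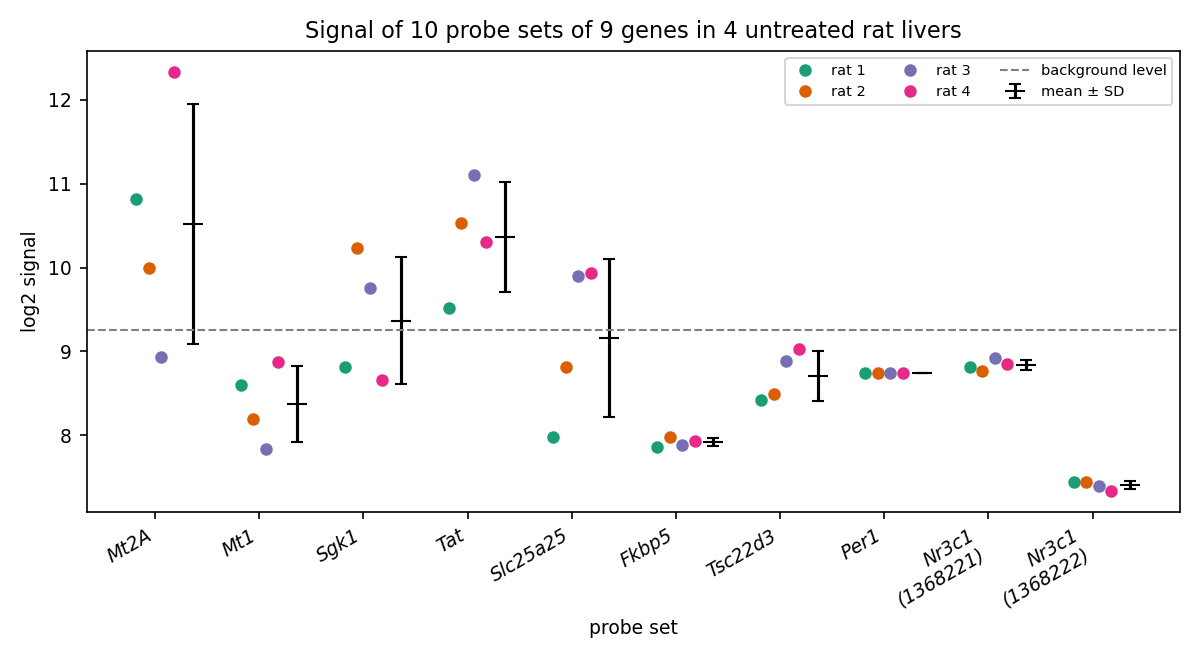
Log2 signal of the 10 probe sets of the 9 genes, with 1 coloured point per rat and the mean ± SD in black beside them. The dashed line is the background level of 9.25, and the points of Mt2A, Sgk1, Tat and Slc25a25 are spread widely while those of Fkbp5, Per1 and Nr3c1 lie close together.

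The background level, a log2 signal of 9.25, was set from 60 genes that work in brain, muscle, testis or eye, as the 95th percentile over the means of their 77 probe sets. Mt2A, Sgk1 and Tat exceeded it, 3 of 10 probe sets, where 14.2% of the named probe sets did. Tat exceeded it on 4 arrays, Mt2A on 3, and Sgk1 and Slc25a25 on 2. The level rested on Myh1, a skeletal muscle myosin. Without its probe sets it was 8.25, and 8 of 10 probe sets lay above, all but Fkbp5 and the dimmer probe set of Nr3c1, as did 45.7% of the named probe sets.

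The SD exceeded 0.5 in 4 of the 10 probe sets, those of Mt2A, Slc25a25, Sgk1 and Tat, against 0.321% of all named probe sets and 1.38% of those above background. The genes were chosen with this spread known, so nothing is read from the comparison. Among the 10, Mt1 at 0.457 was nearest to that threshold from below and Tat at 0.655 from above. Of the 9 probe sets that were not flat, 4 were highest in rat 4, where 20.4% of all such named probe sets were. Likewise 4 were lowest in rat 1, where 26.4% were. No single order of rats ran through the 9 genes: Mt2A and Mt1 had 1 order, Slc25a25 and Tsc22d3 another, and Sgk1 and Tat an order each.

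**Figure D4:**
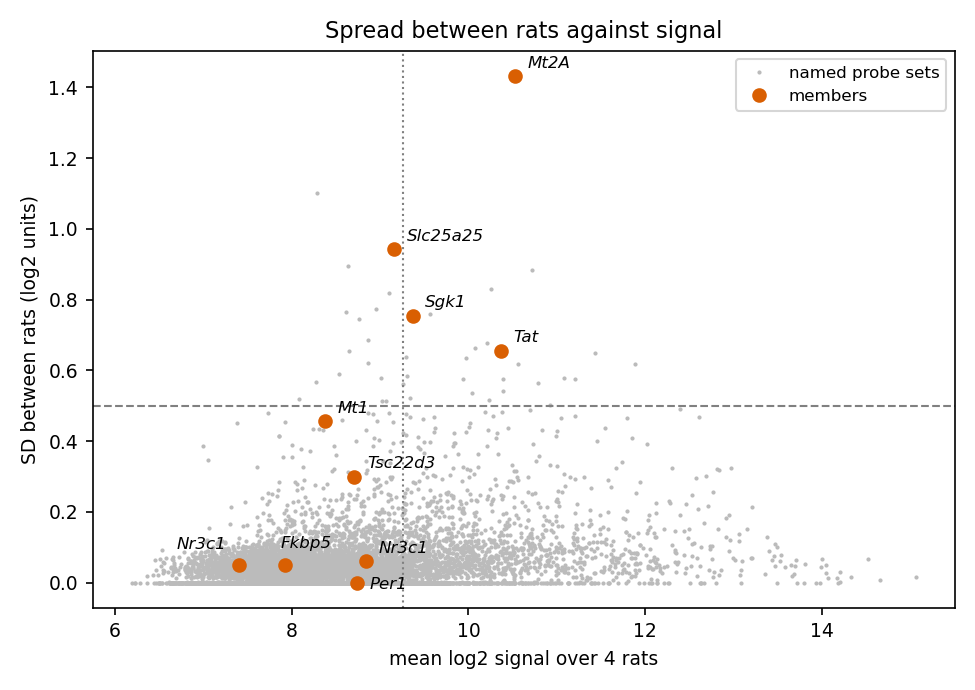
SD between the 4 rats against the mean log2 signal for all 12789 named probe sets in grey, with the 10 probe sets of the 9 genes in orange. The dashed line is an SD of 0.5 and the dotted line the background level, and Mt2A is the highest point of the plot at 1.43.

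Genes named as most alike were those with the smallest root mean square difference between their 4 deviations and those of the gene, among 1332 other genes above background and not flat, or 1333 for Slc25a25. The measure counts the size of the deviations as well as their order, and with 4 rats it describes these arrays only. Tat was matched most closely by Oat, the ornithine aminotransferase, another enzyme of amino acid breakdown. Oat had 9.76, 10.39, 11.08 and 10.32 in rats 1 to 4, a difference of 0.139 log2 units from Tat. Cyp8b1, which makes cholic acid, and Lox, the lysyl oxidase, followed Tat with differences of 0.199 and 0.201.

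Sgk1 was matched most closely by Thrsp and Srebf1, which promote fatty acid synthesis after feeding, at differences of 0.277 and 0.292, and then by Tsc22d1 at 0.341. Thrsp had 10.31, 11.09, 11.13 and 10.23 in rats 1 to 4, and Srebf1 had 10.77, 11.53, 11.16 and 10.56. Both were high in rats 2 and 3 and low in rats 1 and 4, as Sgk1 was.

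The gene nearest to Mt2A was Ugt2b1, a glucuronosyltransferase, at 0.764 log2 units, followed by the phosphatase Dusp6 at 0.821 and the keratin Krt8 at 0.875. Dusp6 had 8.91, 9.31, 8.76 and 10.18 in rats 1 to 4, and Krt8 had 10.39, 10.13, 9.89 and 10.88. The wide spread of Mt2A enlarges every such difference, and Mt1, which is below background, was not among the genes compared. Slc25a25 was nearest to Cyp8b1 at 0.485, Ubd at 0.502 and Errfi1, a glucocorticoid-induced inhibitor of growth factor receptors, at 0.505.

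The glucocorticoid receptor pathway, 18 measured genes besides Nr3c1 and Fkbp5, had 8 above background, or 44.4%, where 16.1% of all genes were. None of the 8 had an SD over 0.5, where 24 of all 1678 genes above background did. Hsd11b1, which regenerates active hormone within hepatocytes, had 12.42, 12.79, 12.75 and 12.72 in rats 1 to 4, lowest in rat 1. Serpina6, the corticosteroid-binding globulin of plasma, had 11.48, 11.79, 11.35 and 11.68. Fkbp4, the Hsp90 partner that aids transport of the receptor to the nucleus, had 10.06, 9.98, 10.12 and 9.81. The 7 of these genes that were not flat had a median SD of 0.116, against 0.079 for all genes above background and not flat.

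Besides the 9 genes, 29 glucocorticoid-induced genes were measured, of which 11 were above background, or 37.9%, where 16.1% of all genes were. Of these 11, 8 were not flat. Of the 8, 5 were highest in rat 3 and 3 in rat 4. Over all genes above background and not flat, 36.6% were highest in rat 3 and 22.9% were highest in rat 4. Errfi1 had 11.12, 11.28, 11.65 and 12.10 in rats 1 to 4, and Pck1, the key enzyme of glucose production, had 12.27, 12.44, 12.63 and 12.96. Both followed the order of Slc25a25 and Tsc22d3, from rat 4 down to rat 1. Of the 71 genes of all lists that were above background and not flat, 5 had this order. Over all named probe sets that were not flat, 3.72% did. Besides Errfi1, Pck1 and Klf15 the 5 were the hepatocyte marker Apoa2 and Stub1 of the receptor pathway list. The ranges of Apoa2 and Stub1 were only 0.25 and 0.049 log2 units. The alanine aminotransferase Gpt, likewise named after its values were seen, had 10.08, 9.61, 10.77 and 10.31, highest in rat 3 as Tat was but lowest in rat 2. Klf9, Dusp1 and Igfbp1, which glucocorticoids also induce, lay below background on average and were also chosen with their values seen. All 3 were highest in rat 4, at 9.43, 9.94 and 9.86, and Dusp1 ran down to 8.01 and Igfbp1 to 8.29 in rat 1. Of the others of these 29 that were below background and not flat, Ddit4, Lcn2 and Usp2 were highest in rat 1. Sds and Lpin1 were highest in rat 3, and the rest in rat 4. Ddit4 was lowest in rat 4, at 7.73.

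Besides Slc25a25, 24 fasting-induced genes were measured, and 9 were above background, or 37.5%, where 16.1% of all genes were. All 9 were not flat. Of the 9, 4 were highest in rat 4, where 22.9% of all genes above background and not flat were. Another 3 were highest in rat 3 and 2 in rat 1, where 36.6% and 23.5% were. Rat 1 was lowest for 4, where 31.6% were, and rat 4 for 2, where 18.2% were. Klf15, a factor for amino acid breakdown in fasting, had 8.99, 9.27, 9.32 and 9.64 in rats 1 to 4, again in the order of Slc25a25. Cyp4a1, a fatty acid hydroxylase, had 10.59, 9.34, 9.95 and 10.30, so it was highest in rat 1, the rat with the least Slc25a25 signal. The fasting-induced genes therefore did not share 1 order either.

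Of 19 feeding-induced genes 13 were above background, or 68.4%, where 16.1% of all genes were. Of the 13, 7 were lowest in rat 4, and the 13 had a median deviation of -0.16 log2 units there. Over all genes above background and not flat, 18.2% were lowest in rat 4. Of the same 13, 7 were highest in rat 3, where 36.6% of all such genes were, with a median deviation of 0.16 there. Scd, the stearoyl-CoA desaturase, had 11.58, 11.80, 10.71 and 10.71 in rats 1 to 4, and Insig1, which restrains sterol synthesis, had 10.52, 9.62, 10.68 and 10.30. Of 16 clock genes, 0 were above background, and Per2 had 8.19, 8.18, 8.42 and 7.83. Immediate early genes had 1 of 24 above background, or 4.17%, Dusp6, given above. Over all genes 16.1% were above background. The level of 9.25 rested on Myh1, and Per1 at 8.74 lay above the 8.25 set without it. A mean below 9.25 therefore does not show that a gene is absent.

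**Figure D5:**
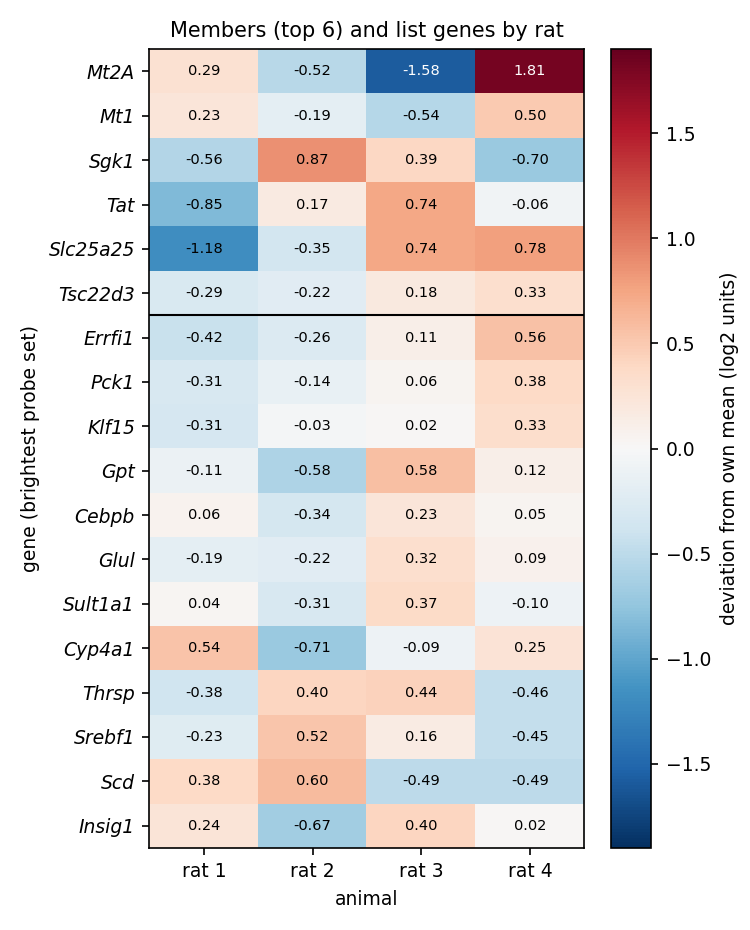
Deviation of each rat's log2 signal from the gene's own mean, in log2 units by colour and number, for 6 of the 9 genes above the line and 12 genes of the glucocorticoid, fasting and feeding lists below it, chosen after their values were seen. Slc25a25, Tsc22d3, Errfi1, Pck1 and Klf15 run from lowest in rat 1 to highest in rat 4, while Sgk1, Thrsp and Srebf1 are low in both rats 1 and 4. Apoa2 and Stub1, not drawn, also ran from lowest in rat 1 to highest in rat 4, over ranges of 0.25 and 0.049 log2 units.

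Acute phase genes, which glucocorticoids help to induce with interleukin 6, had 17 of 22 above background, or 77.3%, where 16.1% of all genes were. Over all 1678 genes above background 24 had an SD over 0.5, and none of these 17 did. Of the 14 of them that were not flat, 7 were highest in rat 4 and 5 in rat 1, where 22.9% and 23.5% of all genes above background and not flat were. Likewise 9 were lowest in rat 3, where 15.5% were. The 14 genes had a median SD of 0.095. A2m, of the same list but below background on average, had 7.93, 9.32, 9.06 and 8.26 in rats 1 to 4, an SD of 0.65. The other genes of the list that were below background had SDs up to 0.26. Hamp, the iron hormone hepcidin, had 13.10, 12.19, 11.97 and 12.30 in rats 1 to 4, Lbp had 9.89, 10.46, 10.32 and 10.55, and Cd14 had 8.95, 9.70, 9.63 and 9.70.

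Markers of cell types were examined because the tissue is whole liver. Hepatocyte markers were above background for 11 of 11 genes, where 16.1% of all genes were. Alb was at 15.06, and the mean signal of the 11 was 13.43 to 13.52 over the rats. Kupffer cell markers had 4 of 6 above background, led by Clec4f, and a mean signal of 9.72 in rat 1 and 9.98 in rat 2. Endothelial markers had 3 of 7, with Eng the brightest and means of 8.68 to 8.77. Stellate cell and fibroblast markers had 1 of 11, the collagen Col3a1, with 10.80, 11.15, 10.23 and 11.15 in rats 1 to 4. The 11 genes had mean signals of 8.40, 8.56, 8.17 and 8.57 in rats 1 to 4, lowest in rat 3 and about level in rats 2 and 4. Blood markers had 1 of 5, the haemoglobin Hbb, at 11.91, 11.27, 11.64 and 11.00. Bile duct markers had 0 of 4 above background, with Epcam the brightest, and lymphocyte and neutrophil markers 0 of 10, with Cd4 the brightest. The part of any of these cells in the values of Mt2A, Sgk1, Tat or Slc25a25 was not tested.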

How the data were processed

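The authors deposited 1 log2 signal for each of 15923 probe sets and 4 arrays, between 5.98 and 15.07 and with a median of 8.11 on each array. Both RMA and GCRMA are listed, beside R 2.4.1 and affy 1.12.2, per the submitters' processing notes. Which method gave the values is not given in the sources used here. Other values, in the deposited array settings, show 1 scan day, 1 lot and 4 fluidics modules, so no batch could be fitted. The scanner settings and the labels' protocol name different chip types of the same family. The number of arrays limits the precision. The 4 animals are separate, and no p-value was computed.

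Of the probe sets, 12789 had 1 symbol, 312 several and 2822 none, and 12754 were matched by gene number to GRCr8 names. Lists were read on the probe set with the highest mean of each gene. The members, lists and tests were chosen with earlier results of these data known. Named genes were the 9 members, the 3 genes above background with the largest SD of each pathway list, the 3 genes most alike to each member with an SD over 0.5, and the brightest gene of each cell type list. Mt3, Mtf1, Ttr, Gpt, Per2, Klf9, Dusp1, Igfbp1 and A2m fall outside this rule and were picked after their values were seen. The same holds for Cebpb, Glul and Sult1a1 in a plot. Apoa2, Stub1, Ddit4, Lcn2, Usp2, Sds and Lpin1, named by their order of rats, fall outside the rule too. Alternatives covered the background level, the thresholds, the probe sets used, the scaling and each rat left out. The spread and likeness measures were tested on simulated data. Python 3.11.15, numpy 2.4.6, pandas 2.3.3 and matplotlib 3.10.9 were used.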

Additional observations from a re-analysis of the deposited data

Results flagged for a closer look

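The probe set 1371237_a_at, which carries 3 gene symbols and lies outside the genes described, had a mean log2 signal of 12.07 and the order of rats of Mt2A. Among 54 sets of 4 values examined, 4 had 1 rat far from the other 3 relative to the range. About 1 in 20 would be flagged among independent sets drawn from a normal distribution. Many of the 54 were chosen for their spread or likeness on these arrays and are not independent, so that rate does not apply to them. Cd14 in rat 1, at 8.95, lay below the other rats (9.63 to 9.70). Ugt2b1 in rat 3, at 9.02, lay below the other rats (10.57 to 10.84). Ubd in rat 1, at 8.43, lay below the other rats (9.85 to 10.02). The mean signal of lymphocyte and neutrophil markers, of which 0 of 10 were above background, was 7.76 in rat 3 and 7.78 in the other rats. The flagged values of Cd14, Ugt2b1 and Ubd also lay below the background level of 9.25. None of the 9 genes was among these 4 sets.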

How the results depend on the processing

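The number of probe sets of the 9 genes above background depended on the level: it was 3 of 10 as reported (14.2% of all named probe sets), 8 of 10 with the 90th percentile (45.7%), 0 of 10 with the 98th (4%) and 8 of 10 without Myh1 (45.7%). It was 7 of 9 when genes were read as a median over their probe sets (46.9% of all genes). It was 7 of 9 when probe sets with the suffixes a, s or x were dropped, Mt1 among them (45.1%). Without flat probe sets it was 1 of 9 (7.58%). Glucocorticoid-induced genes above background numbered 14 with the members included, and 28, 26 and 6 under the last 3 of these settings. The background level itself was then 8.24, 8.28 and 10.40. Leaving out each rat gave 2 to 4 probe sets above background, 4 to 5 with an SD over 0.5, 4 to 5 highest in rat 4 (no value without rat 4), 13 to 15 glucocorticoid-induced genes above background, and a Mt2A mean of 9.92 to 11.05. The SD of Mt2A was 0.94 to 1.74, that of Tat 0.41 to 0.80, that of Sgk1 0.59 to 0.87 and that of Slc25a25 0.64 to 1.12. Centring the arrays on bright probe sets or quantile normalization changed none of the counts by over 1.5 times and kept the order of rats of Mt2A, Mt1, Sgk1, Tat, Slc25a25 and Tsc22d3. No paired analysis was possible because there is 1 group. A mean signal below background limits what Mt1, Slc25a25, Tsc22d3, Fkbp5, Per1 and Nr3c1 can show, their folds and orders included. Single values below background, Mt2A in rat 3 at 8.94 and Sgk1 in rats 1 and 4 at 8.81 and 8.67, limit the folds of these genes too.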
